A study of Homo sapiens with 18 samples.

Results

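Imprinted genes are described here in HAP1, a human line with close to a single set of chromosomes that was derived from a chronic myeloid leukaemia. The 42 genes were taken from a list of known imprinted protein-coding genes and matched by symbol, and 40 of them were found among the 20329 genes in the count files. KLF14 and PEG13 were not matched and are not analysed here. The 40 genes belong to 19 chromosome bands, of which 11p15 and 15q11-q12 hold 6 genes each, 7q21 holds 4, and 8q24 and 14q32 hold 3 each.

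An imprinted gene is transcribed mainly from the copy inherited from a single parent, because DNA methylation laid down in egg or sperm marks its control region. Imprinted genes lie in clusters that share such a control region, and several clusters use CTCF and cohesin at that region to direct enhancers to the right promoter. A haploid cell carries a single copy of each gene, so that copy brings either the methylated or the unmethylated state with it. The count files carry no allele information, and which parent each HAP1 chromosome came from was not tested.

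Polyadenylated RNA was sequenced in 18 samples, 3 in each of 6 groups. All lines were HAP1. Control A and control B were wild type. *ΔWAPL* clone 3.3 and *ΔWAPL* clone 1.14 lacked WAPL, the factor that releases cohesin from DNA, and each was a single clone made by inserting a blasticidin cassette with CRISPR. *ΔSCC4* cells carried a puromycin cassette in SCC4, the partner of the cohesin loader, and in *ΔWAPL*/*ΔSCC4* cells SCC4 was knocked out in *ΔWAPL* cells, here labelled 3.3. Clone 3.3, *ΔSCC4* and *ΔWAPL*/*ΔSCC4* were compared with control A (set A), and clone 1.14 with control B (set B). Each clone has its own controls, so clone and set cannot be told apart. Nothing in the labels says that replicates came from separate cultures, and p-values measure only the spread between these samples.

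Libraries held between 10007646 and 20711127 reads on genes (median 16177867). WAPL had a log2 fold change of -1.37 ± 0.12 (SE) over both clones, and MAU2, the gene for SCC4, had a mean of 65.6 CPM in control A and 0.702 CPM in *ΔSCC4* (CPM, counts scaled to library size after TMM normalization). Libraries of the same group differed in how their deviations from the group mean followed exon length, with Spearman's rho across 11314 genes between -0.356 and 0.472. Of 6 blood cell markers, PTPRC, CD34, SPI1 and GATA1 had at most 3 reads in every sample, while KIT had a mean of 18.5 CPM in control A and 22.3 in control B. KIT fell in *ΔWAPL*/*ΔSCC4* to 8.01 CPM (log2 fold change -1.21 ± 0.19 against control A, edgeR adjusted p = 0.00248). The summed level of 5 epithelial or adherent cell markers ran from 513 to 736 CPM in the controls, from 390 to 518 in the *ΔWAPL* clones, from 554 to 641 in *ΔSCC4* and from 344 to 407 in *ΔWAPL*/*ΔSCC4*. Most of this sum was VIM, with a mean of 586 CPM in control A and 254 CPM in *ΔWAPL*/*ΔSCC4*. KRT8 went the other way in *ΔWAPL*/*ΔSCC4*, from 8.14 to 48.5 CPM (2.57 ± 0.15, edgeR adjusted p = 3.31e-06). It fell in clone 3.3 (-1.15 ± 0.19, adjusted p = 0.000814), clone 1.14 (-2.14 ± 0.11, adjusted p = 3.66e-05) and *ΔSCC4* (-1.61 ± 0.25, adjusted p = 0.00189). In clone 1.14 VIM (-0.43 ± 0.06, adjusted p = 0.00382) and EPCAM (-3.89 ± 0.34, adjusted p = 0.000322) fell as well. EPCAM also fell in clone 3.3 (-1.93 ± 0.42, adjusted p = 0.00834). KRT18 did not pass in any comparison, and CDH1 had at most 3 reads in every sample. The summed level of 4 neuronal markers ran from 23.7 to 40.9 CPM in the controls, from 21.4 to 28.4 in clone 3.3, from 42.8 to 43.9 in clone 1.14, from 19.4 to 29.0 in *ΔSCC4* and from 3.17 to 4.73 in *ΔWAPL*/*ΔSCC4*. SYT1 fell in clone 3.3 and *ΔSCC4* (edgeR adjusted p = 4.21e-07 and 0.000169), where MAP2 did not pass. In clone 1.14 MAP2 rose (0.97 ± 0.11, adjusted p = 0.000933) and SYT1 did not pass. Both fell in *ΔWAPL*/*ΔSCC4* (-4.31 ± 0.22 for SYT1 and -2.73 ± 0.24 for MAP2, adjusted p = 1.31e-06 and 3.57e-05). The summed level of 4 fibroblast markers ran from 13.7 to 23.9 CPM in the controls, from 11.8 to 21.9 in the single knockouts and from 28.5 to 32.8 in *ΔWAPL*/*ΔSCC4*. Its members parted in *ΔWAPL*/*ΔSCC4*, where COL1A1 rose (1.15 ± 0.13, edgeR adjusted p = 0.0002) and THY1 fell (-1.16 ± 0.28, adjusted p = 0.0279). THY1 also fell in clone 1.14 (-1.77 ± 0.39, adjusted p = 0.0195). The part of these markers in the results was not tested, and in bulk samples fewer cells of a type and less RNA per cell cannot be told apart.

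To determine which imprinted genes were on in control cells, a gene was called on when it had at least 1 CPM in all 6 controls. It was called off when no control had more than 3 reads and low when it was otherwise under 1 CPM in all 6. By this rule 22 of the 40 genes were on, 9 were low, 7 were off, and MEST and DLK1 crossed 1 CPM in some controls. Of all 20329 genes, 57.7% were on and 31% were off by the same rule. In 7 of the 19 bands every matched gene was on, and each of these bands held only 1 matched gene. In 5 bands no gene was on, and in 7 the band was mixed.

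Grouped by the copy that textbooks give as expressed, 4 of 17 paternally expressed genes were on and 6 were off. Of the 13 maternally expressed genes, 10 were on and none was off, with CALCR, KCNK9 and PHLDA2 low. Of the 10 genes whose imprint depends on isoform or tissue, or is little settled, 8 were on. Genes in the paternal and maternal groups may also be imprinted in some tissues only, and their imprinting in HAP1 was not tested. Genes of a band are not independent of each other, and these counts are a description without a test.

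**Figure D1:**
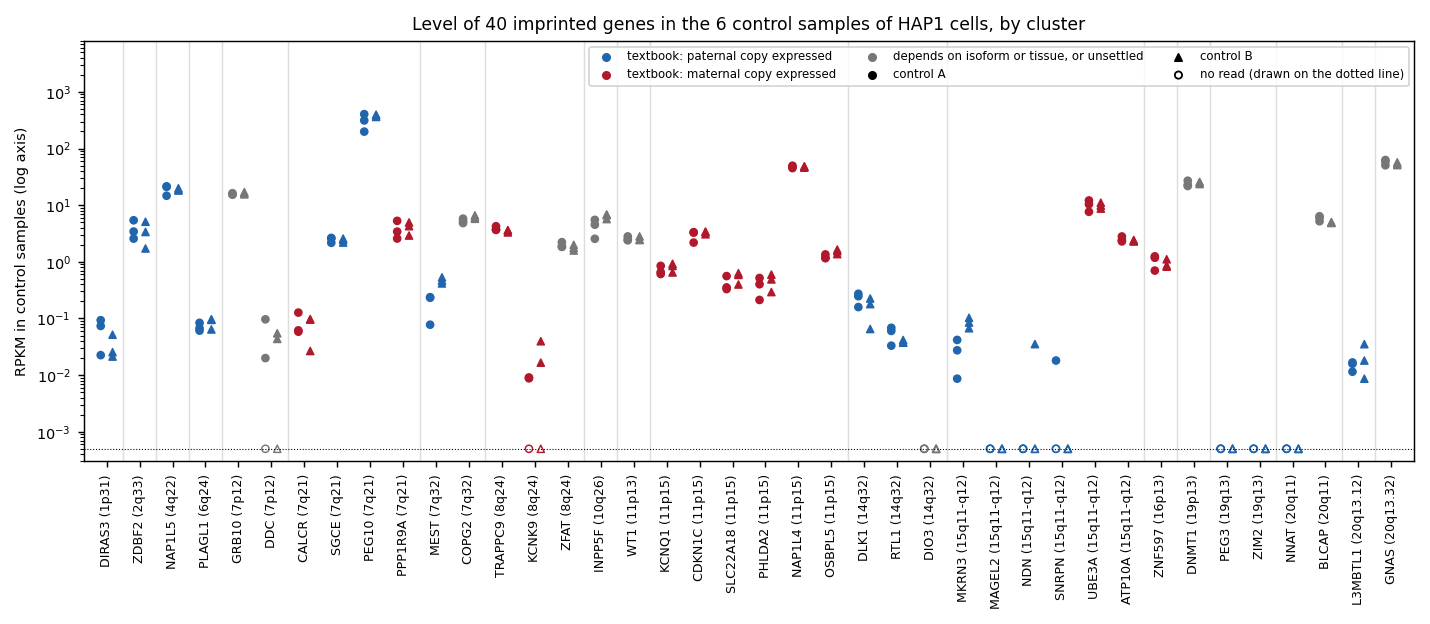
Level of each of the 40 imprinted genes in the 6 control samples, in RPKM on a log axis, ordered by chromosome band. Circles are control A, triangles control B, and open symbols on the dotted line have no read. PEG10 lies highest at 199 to 405 RPKM, and the genes without reads in most controls include 3 of 15q11-q12 and both of 19q13.

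The paternally expressed genes that were on were PEG10, SGCE, NAP1L5 and ZDBF2. PEG10, a gene derived from a retrotransposon, had the highest level of all members per exon length, 343 ± 78.1 RPKM (SD, n = 6; RPKM is CPM over exon length in kilobases). In control A its level was 1330, 2095 and 2707 CPM in replicates 1, 2 and 3, and in control B 2649, 2416 and 2586 CPM. The control A samples differed from each other by more than the control B samples did. The order of the control A samples was also that of their rho with exon length, -0.332, -0.159 and 0.472, and the part of this in the level of PEG10 was not tested.

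GNAS, the Gs alpha subunit, followed at 55.7 ± 4.71 RPKM, and then NAP1L4, a nucleosome assembly protein, at 47.4 ± 1.65 RPKM. DNMT1, the maintenance DNA methyltransferase, had 24.4 ± 1.95 RPKM. These 4 genes did not overlap each other over the 6 controls. NAP1L5 had 19 ± 2.48 RPKM and overlapped GRB10, an adaptor of insulin receptor signalling, at 16 ± 0.622 RPKM. UBE3A, the ubiquitin ligase lost in Angelman syndrome, had 9.95 ± 1.61 RPKM and overlapped neither neighbour in the order. From COPG2 at 5.72 ± 0.626 RPKM down to ATP10A at 2.43 ± 0.193 RPKM, each gene overlapped the next. Below it lay ZFAT at 1.88 ± 0.216 RPKM and OSBPL5 at 1.37 ± 0.194 RPKM. The lowest genes that were on, ZNF597, KCNQ1 and SLC22A18, had 0.987 ± 0.222, 0.755 ± 0.132 and 0.477 ± 0.131 RPKM and also overlapped in this order. RPKM used the union of annotated exons, which understates a gene with long unused exons.

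In 15q11-q12 the paternally expressed genes were nearly without reads. MAGEL2 had 0 reads in all 18 samples. NDN, which like MAGEL2 encodes a MAGE family protein, had 1 read in 1 control and none elsewhere, and SNRPN, a splicing factor subunit, had at most 1 read in a sample. In the annotation 29.5% of the exon bases of SNRPN are shared with SNURF and another gene identifier, and a read that fits more than 1 gene is not counted, so the count covers the remaining bases. UBE3A and ATP10A of the same band, which textbooks give as maternally expressed, were on in all 6 controls. Whether either gene is imprinted in HAP1 was not tested. MKRN3, a paternally expressed ubiquitin ligase, lay between, with 1 to 13 reads in a control.

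PEG3, a zinc finger gene of 19q13, and its neighbour ZIM2 had 0 reads in all 18 samples. They share exons, with 12.9% of the exon bases of PEG3 and 41.2% of those of ZIM2 in common. DIO3, a deiodinase of 14q32, also had 0 reads in all 18 samples, and NNAT of 20q11 had a single read in a clone 3.3 sample. A count of 0 over the 6 controls allows a level of up to 0.0314 CPM (3 counts; counting error only). In 20q11, BLCAP, in whose intron NNAT lies, was on at 42.4 CPM on average in the controls.

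Promoter sequences from RefSeq (GRCh38.p14, 250 bases before to 50 after the gene start) were found for 28 of the 42 genes. CpG content was compared because imprints are laid down on CpG sites. Over all 27305 promoters the median number of CG dinucleotides was 14, with quartiles of 3 and 28, and over the 28 imprinted genes it was 22.5. The median was 30 for 15 genes that were on (range 10 to 44), 21 for 7 low genes (3 to 35) and 18.5 for 4 genes that were off (7 to 35), so that the ranges overlap. The promoter windows of a silent, a low and a mixed gene are shown with CG dinucleotides in capitals, since these genes are followed across the genotypes. NDN (chr15:23687256-23687555, minus strand) holds 35, MKRN3 (chr15:23565424-23565723, plus strand) 15, and MEST (chr7:130485925-130486224, plus strand) 13. As many as these or more are held by 14%, 48.8% and 51.5% of all promoters. The MEST window starts from the gene start in the table, and MEST has other starts. No methylation was measured in these files.
NDN: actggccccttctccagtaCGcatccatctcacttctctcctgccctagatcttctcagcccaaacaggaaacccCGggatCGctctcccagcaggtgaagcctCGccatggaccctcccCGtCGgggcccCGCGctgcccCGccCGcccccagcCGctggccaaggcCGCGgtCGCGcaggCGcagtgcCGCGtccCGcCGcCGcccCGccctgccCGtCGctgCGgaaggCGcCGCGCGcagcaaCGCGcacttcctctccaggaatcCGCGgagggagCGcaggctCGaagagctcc
MKRN3: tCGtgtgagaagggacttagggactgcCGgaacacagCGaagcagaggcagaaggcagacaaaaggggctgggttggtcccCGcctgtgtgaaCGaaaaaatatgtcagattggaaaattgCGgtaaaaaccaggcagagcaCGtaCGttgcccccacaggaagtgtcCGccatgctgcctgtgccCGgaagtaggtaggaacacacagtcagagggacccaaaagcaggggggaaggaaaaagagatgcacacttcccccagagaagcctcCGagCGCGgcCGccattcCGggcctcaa
MEST: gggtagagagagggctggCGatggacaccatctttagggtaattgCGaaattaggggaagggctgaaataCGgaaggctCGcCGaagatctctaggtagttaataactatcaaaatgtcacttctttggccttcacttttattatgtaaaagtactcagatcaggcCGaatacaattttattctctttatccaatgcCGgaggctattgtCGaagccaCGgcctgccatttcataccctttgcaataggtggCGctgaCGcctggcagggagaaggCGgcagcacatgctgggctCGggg

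To determine how the imprinted genes moved with cohesin release and loading, each knockout was tested against its controls with edgeR's quasi-likelihood test over all genes, at an adjusted p of 0.05. Between 23 and 26 of the imprinted genes passed the filter on low counts in each comparison. In clone 3.3, 1 of 24 changed, DLK1, which fell, against 8.07% of all genes. In clone 1.14, 4 of 24 changed, against 20.1% of all genes: KCNQ1 rose and MEST, INPP5F and ATP10A fell. In *ΔSCC4*, 4 of 23 changed, against 9.49% of all genes: KCNQ1, ZFAT and OSBPL5 rose and DLK1 fell. In *ΔWAPL*/*ΔSCC4*, 3 of 25 changed, against 7.95% of all genes: PHLDA2 and MEST rose and DLK1 fell. PHLDA2, with 3, 6 and 8 reads in control A, passed the filter there through *ΔWAPL*/*ΔSCC4*, with 41, 29 and 32 reads. DLK1 passed it through control A, with 22, 21 and 14 reads against 4, 5 and 8 in *ΔWAPL*/*ΔSCC4*. The same filter was used for all genes. Over both *ΔWAPL* clones, 3 of 26 changed, against 17.7% of all genes: DLK1, MEST and ATP10A fell.

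The median log2 fold change of the imprinted genes tested was -0.076 in clone 3.3, -0.032 in clone 1.14, 0.11 in *ΔSCC4* and -0.044 in *ΔWAPL*/*ΔSCC4*. Over all genes tested it was -0.0006, 0.0015, -0.0047 and 0.0006. The comparisons of clone 3.3, *ΔSCC4* and *ΔWAPL*/*ΔSCC4* share the 3 samples of control A. In all, 8 imprinted genes passed in at least 1 of these 5 comparisons. DLK1, MEST, KCNQ1 and ATP10A passed in more than 1, while PHLDA2, OSBPL5, ZFAT and INPP5F each passed in 1. The comparison over both clones uses the same samples as those of clone 3.3 and clone 1.14. ATP10A passed only over both clones and in clone 1.14, so its 2 calls are not independent.

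**Figure D2:**
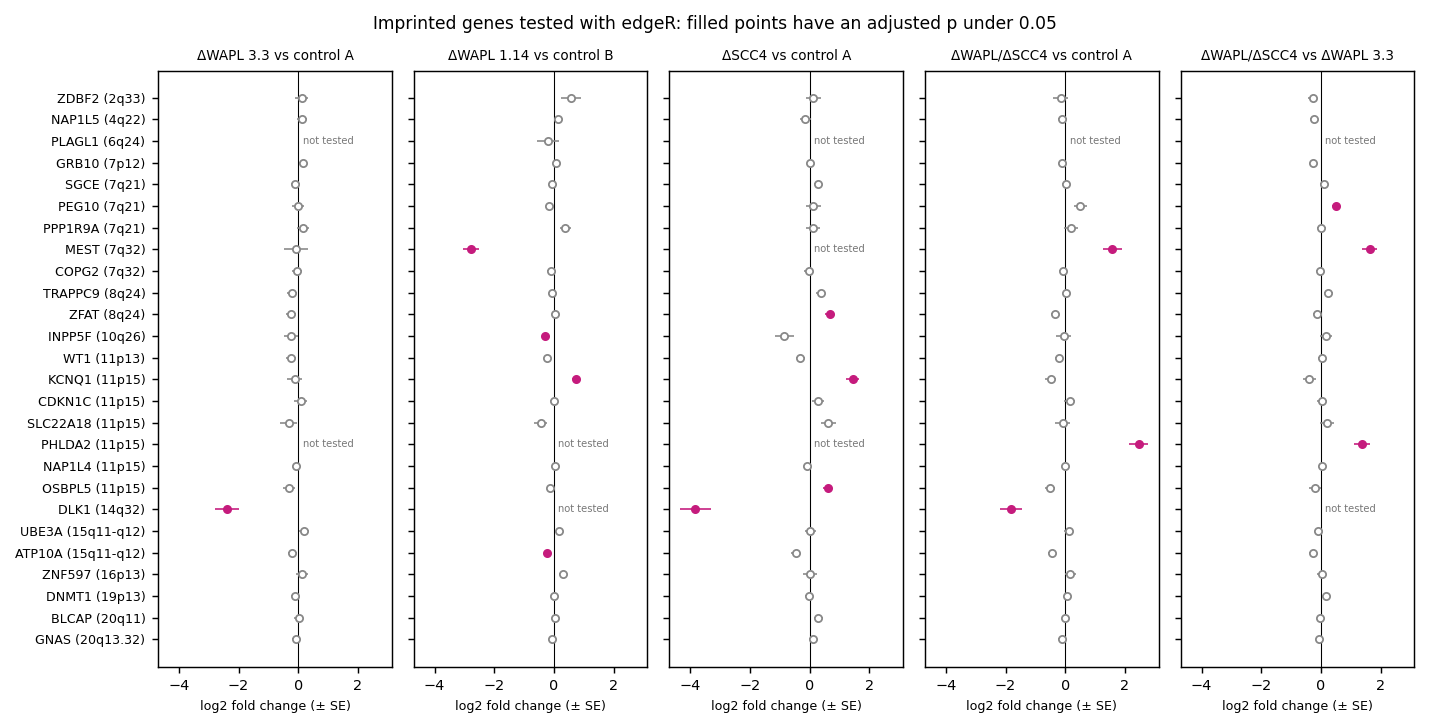
Log2 fold change with its SE for the 26 imprinted genes tested in at least 1 comparison, with a panel for each of 5 comparisons. Filled points have an edgeR adjusted p under 0.05. DLK1, MEST, KCNQ1 and PHLDA2 lie farthest from 0, and most other genes lie near it in every panel.

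The pairing of replicate numbers bears on these counts. Samples with the same number deviated together in control A and *ΔSCC4*, and in control B and clone 1.14. With the number as a replicate block, 12 of 23 imprinted genes changed in *ΔSCC4*, 8 up and 4 down, but so did 46.0% of all genes. In clone 1.14 the block gave 6 of 24, against 24% of all genes, with PPP1R9A (log2 fold change 0.41, edgeR adjusted p = 0.0475) and PEG10 (-0.16, adjusted p = 0.0343) added. In *ΔSCC4* it added SLC22A18 (0.62, adjusted p = 0.0178), TRAPPC9 (0.37, adjusted p = 0.00108), SGCE (0.29, adjusted p = 0.00248), BLCAP (0.29, adjusted p = 0.00364) and GNAS (0.11, adjusted p = 0.0457) among the rises. Among the falls in *ΔSCC4* it added INPP5F (-0.82, adjusted p = 0.000506), ATP10A (-0.47, adjusted p = 0.000348) and WT1 (-0.31, adjusted p = 0.02).

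DLK1, a transmembrane protein of the Notch ligand family that holds back adipocyte differentiation, was lower in every knockout sample than in its controls (ENSG00000185559, chr14:101192042-101204561, hg19, plus strand). Its level was 1.43, 1.29 and 0.834 CPM in the replicates of control A and 0.342, 0.941 and 1.18 CPM in control B. It was 0.199, 0.283 and 0.199 CPM in clone 3.3 and 0.228, 0.307 and 0.452 CPM in *ΔWAPL*/*ΔSCC4*. Every sample of these knockouts lay below every sample of control A. In *ΔSCC4* the level was 0.065, 0.102 and 0.0691 CPM, and in clone 1.14 it was 0, 0.0593 and 0 CPM. All samples of clone 1.14 lay below the lowest sample of control B.

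The fall in log2 fold change was -2.38 ± 0.41 (SE) in clone 3.3 (edgeR adjusted p = 0.00119) and -1.82 ± 0.37 in *ΔWAPL*/*ΔSCC4* (adjusted p = 0.0121). In *ΔSCC4*, 3 reads remained against 57 in control A, a ratio of 15.6 (95% exact counting interval 5.07 to 77.8; edgeR adjusted p = 0.000814). In clone 1.14, 1 read stood against 40 in control B, a ratio of 44.2 (interval 7.5 to 1790), and the filter left DLK1 out of the test. Without the filter it fell there with an edgeR adjusted p of 0.00898. In *ΔWAPL*/*ΔSCC4* the call was lost without replicate 2 of control A (log2 fold change -1.75, adjusted p = 0.0629) or replicate 1 of *ΔWAPL*/*ΔSCC4* (-1.61, adjusted p = 0.0735). Between *ΔWAPL*/*ΔSCC4* and clone 3.3 the difference was 0.56 ± 0.59 without the filter (adjusted p = 0.625).

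RTL1, a retrotransposon-derived gene of the same cluster on the opposite strand, was low. It had 5, 6 and 3 reads in control A and 3, 3 and 4 in control B. No knockout sample had more than 1 read, and all 3 *ΔSCC4* samples had 0. Its level was at least 3.83-fold lower in *ΔSCC4* than in control A (floor of 3 counts over the group). The ratio of control to knockout was 7.13 (interval 1.64 to 64.6) for clone 3.3, 14.9 (2.27 to 631) for *ΔWAPL*/*ΔSCC4* and 5.53 (1.18 to 51.9) for clone 1.14. The filter left RTL1 out, and without it edgeR gave adjusted p-values of 0.0247 in *ΔSCC4*, 0.0483 in *ΔWAPL*/*ΔSCC4*, 0.082 in clone 3.3 and 0.0907 in clone 1.14. Of the genes within 250 kb of DLK1 that are not imprinted members, WDR25 and BEGAIN were tested. WDR25 fell in clone 1.14 (-0.61 ± 0.13, edgeR adjusted p = 0.0175) and did not pass in the other single comparisons with controls.

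MEST, an enzyme of the alpha/beta hydrolase fold, moved in opposite directions in different knockouts (ENSG00000106484, chr7:130126012-130146306, hg19, plus strand). Its level was 1.11, 0.37 and 1.13 CPM in control A and 1.98, 2.22 and 2.53 CPM in control B. In clone 1.14 it was 0.265, 0.475 and 0.241 CPM, below every sample of its controls. In clone 3.3 it was 0.698, 0.849 and 0.997 CPM, within the range of control A. In *ΔSCC4* it was 0.26, 0.407 and 0.484 CPM, which overlapped control A. In *ΔWAPL*/*ΔSCC4* it was 2.33, 2.83 and 2.66 CPM, above every sample of control A and of clone 3.3 but overlapping control B.

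MEST fell in clone 1.14 with a log2 fold change of -2.77 ± 0.26 (edgeR adjusted p = 0.000455), a 6.83-fold change. In clone 3.3 its log2 fold change was -0.07 ± 0.39 (adjusted p = 0.961). The difference between the clones was 2.71 ± 0.53 (clone 3.3 minus clone 1.14, edgeR adjusted p = 0.0116), where 1 of 26 imprinted genes and 2.65% of all genes passed. MEST rose in *ΔWAPL*/*ΔSCC4* by 1.57 ± 0.32 against control A (adjusted p = 0.0112) and by 1.63 ± 0.24 against clone 3.3 (adjusted p = 0.000201). Over both clones its fall (-1.38 ± 0.42, adjusted p = 0.0344) was lost with the replicate block (-1.35, adjusted p = 0.107). It was also lost whenever any 1 sample of set B was left out, with the log2 fold change then between -1.34 and -1.14 and the adjusted p between 0.0554 and 0.0961. Control B lay above control A by 1.35 ± 0.33, which did not pass (adjusted p = 0.134).

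COPG2, a coatomer subunit and a neighbour of MEST, had log2 fold changes between -0.09 and -0.03 in the 4 single knockout comparisons, none past the threshold. CEP41, also a neighbour of MEST, did not pass in any comparison.

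**Figure D3:**
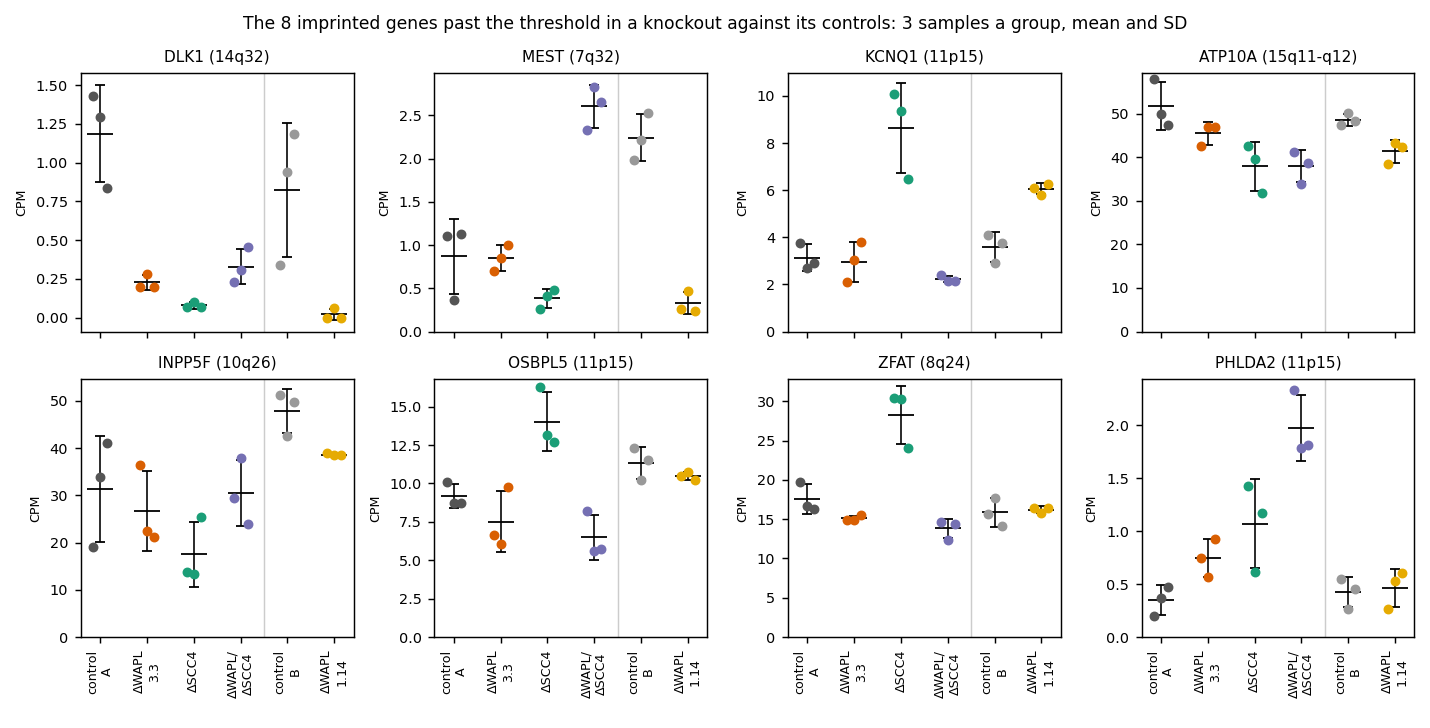
CPM in each of the 18 samples for the 8 imprinted genes that passed in at least 1 comparison of a knockout with its controls. Points are samples, horizontal marks the group mean and bars the SD (n = 3), and a grey line parts set A from set B. DLK1 is lower in every knockout sample than in its controls, KCNQ1 is raised in ΔSCC4 and clone 1.14, and PHLDA2 is highest in ΔWAPL/ΔSCC4.

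In 11p15, KCNQ1, the pore subunit of a voltage-gated potassium channel, rose in *ΔSCC4* and in clone 1.14 (ENSG00000053918, chr11:2465884-2870335, hg19, plus strand). Its level was 3.78, 2.71 and 2.92 CPM in control A and 10.1, 9.36 and 6.49 CPM in *ΔSCC4*. It was 4.1, 2.89 and 3.77 CPM in control B and 6.09, 5.82 and 6.27 CPM in clone 1.14. Neither pair of groups overlapped. The level was 2.09, 3.04 and 3.79 CPM in clone 3.3 and 2.39, 2.15 and 2.15 CPM in *ΔWAPL*/*ΔSCC4*, which lay below every control sample.

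The rise of KCNQ1 was 1.45 ± 0.22 on the log2 scale in *ΔSCC4* (edgeR adjusted p = 0.0019) and 0.75 ± 0.13 in clone 1.14 (adjusted p = 0.00795). In *ΔWAPL*/*ΔSCC4* the log2 fold change was -0.49 ± 0.19 (adjusted p = 0.21), and in clone 3.3 it was -0.11 ± 0.25 (adjusted p = 0.895). The difference between the *ΔWAPL* clones, -0.85 ± 0.29, did not pass (adjusted p = 0.209).

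OSBPL5, an oxysterol-binding protein-related protein, rose in *ΔSCC4* (ENSG00000021762, chr11:3108337-3187969, hg19, minus strand). It had 10.1, 8.75 and 8.7 CPM in control A and 16.25, 13.13 and 12.71 CPM in *ΔSCC4*, without overlap. It had 6.68, 6.08 and 9.77 CPM in clone 3.3 and 8.19, 5.59 and 5.71 CPM in *ΔWAPL*/*ΔSCC4*. In set B it had 12.3, 10.2 and 11.5 CPM in the controls and 10.5, 10.7 and 10.2 CPM in clone 1.14, and these groups overlapped. The rise in *ΔSCC4* was 0.60 ± 0.16 (edgeR adjusted p = 0.0442). It was lost without replicate 2 or 3 of control A or replicate 1 or 2 of *ΔSCC4*, with log2 fold changes between 0.48 and 0.66 and adjusted p-values between 0.0888 and 0.216, and with at least 10 counts in every sample (adjusted p = 0.0545).

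PHLDA2, a small protein with a pleckstrin homology domain that limits placental growth, was low in the controls and rose in *ΔWAPL*/*ΔSCC4* (ENSG00000181649, chr11:2949503-2950650, hg19, minus strand). Its level was 0.195, 0.37 and 0.477 CPM in control A and 2.33, 1.78 and 1.81 CPM in *ΔWAPL*/*ΔSCC4*. In between lay clone 3.3 at 0.747, 0.566 and 0.93 CPM and *ΔSCC4* at 1.43, 0.611 and 1.17 CPM. All samples of both single knockouts in set A were above control A and below *ΔWAPL*/*ΔSCC4*. In set B the controls had 0.547, 0.269 and 0.45 CPM and clone 1.14 had 0.265, 0.534 and 0.603 CPM, with overlap.

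The rise of PHLDA2 was 2.47 ± 0.31 against control A (edgeR adjusted p = 0.000583), a 5.52-fold change, and 1.39 ± 0.27 against clone 3.3 (adjusted p = 0.00243). It was filtered out of the comparisons of the single knockouts. Without the filter, edgeR gave 1.64 ± 0.44 in *ΔSCC4* (adjusted p = 0.0204), 1.07 ± 0.45 in clone 3.3 (adjusted p = 0.187) and 0.13 ± 0.44 in clone 1.14 (adjusted p = 0.859).

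The other genes of 11p15 did not pass in any comparison without the replicate block. These were CDKN1C, the cyclin-dependent kinase inhibitor p57, the transporter SLC22A18, and NAP1L4. The log2 fold changes of NAP1L4 were between -0.08 and 0.05 in the 4 single knockout comparisons with controls. CDKN1C had between 5.42 and 8.47 CPM in the controls and a log2 fold change of 0.29 ± 0.20 in *ΔSCC4* (adjusted p = 0.416). CARS1, a tRNA synthetase gene between PHLDA2 and OSBPL5, fell in clone 1.14 (-0.55 ± 0.07, edgeR adjusted p = 0.00143).

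In 15q11-q12, ATP10A, a phospholipid-transporting ATPase, was slightly lower in every knockout group than in its controls (ENSG00000206190, chr15:25922420-26110331, hg19, minus strand). It had 57.9, 49.9 and 47.4 CPM in control A and 42.5, 46.9 and 47 CPM in clone 3.3. In control B it had 47.4, 50.1 and 48.2 CPM and in clone 1.14 it had 38.4, 43.3 and 42.3 CPM. In *ΔSCC4* it had 42.5, 39.6 and 31.7 CPM, and in *ΔWAPL*/*ΔSCC4* 41.1, 33.9 and 38.6 CPM. Each knockout sample lay below each control of its set.

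Its log2 fold change was -0.24 ± 0.07 in clone 1.14 (edgeR adjusted p = 0.0474) and -0.21 ± 0.07 over both clones (adjusted p = 0.0475). It was -0.21 ± 0.15 in clone 3.3 (adjusted p = 0.576), -0.46 ± 0.16 in *ΔSCC4* (adjusted p = 0.0999) and -0.45 ± 0.13 in *ΔWAPL*/*ΔSCC4* (adjusted p = 0.0696). DESeq2 called the fall in *ΔWAPL*/*ΔSCC4*. The call over both clones was lost in 13 of 18 alternatives, 10 of them without a single sample, when the log2 fold change lay between -0.24 and -0.18 with adjusted p-values up to 0.126. With the replicate block it was -0.21 (adjusted p = 0.152). In clone 1.14 the call was lost in 10 of 13 alternatives, with log2 fold changes between -0.28 and -0.19 over all 13 and adjusted p-values up to 0.203. These were DESeq2, leaving genes unfiltered, requiring 10 counts in each sample, a single fit of all 18 samples, all 6 controls, and leaving out replicate 1 or 2 of control B or any sample of clone 1.14. UBE3A did not pass in any comparison, with log2 fold changes between 0.03 and 0.19 in the 4 single knockout comparisons with controls.

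MKRN3 had 3, 1 and 5 reads in control A, 9, 7 and 7 in clone 3.3 and 4, 5 and 4 in *ΔWAPL*/*ΔSCC4*. It had 0 reads in all 3 *ΔSCC4* samples. In control B it had 7, 9 and 13 reads, and in clone 1.14 it had 0 in all 3 samples. Its level was at least 10.7-fold lower in clone 1.14 than in control B and at least 2.46-fold lower in *ΔSCC4* than in control A (floor of 3 counts over the group). The filter left MKRN3 out of every comparison. Without the filter the fall in clone 1.14 passed (edgeR adjusted p = 0.00588), the fall in *ΔSCC4* did not (adjusted p = 0.0944), and the difference between the *ΔWAPL* clones passed (adjusted p = 0.000763).

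**Figure D4:**
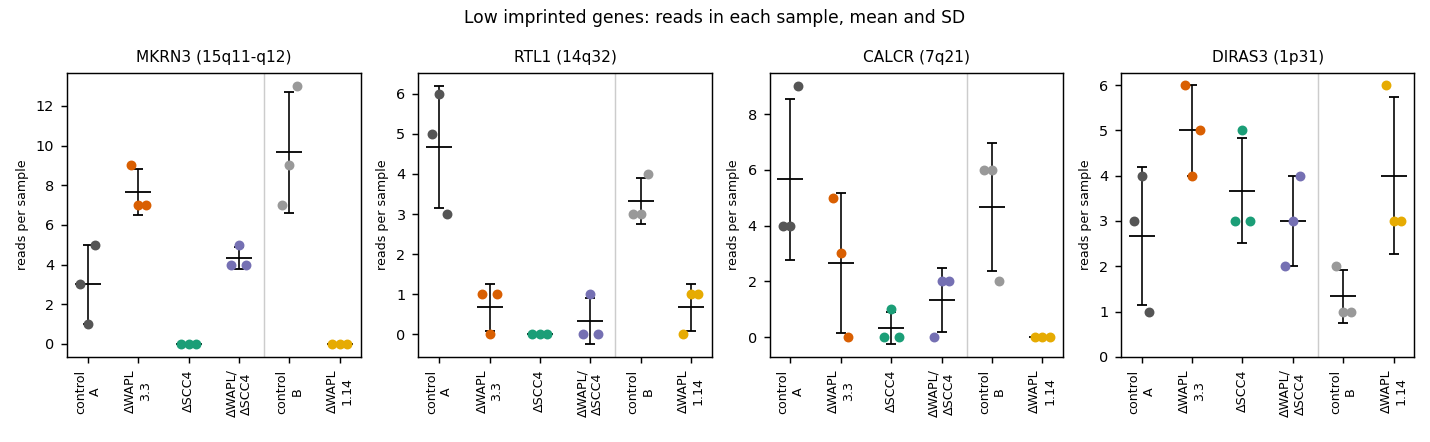
Reads in each of the 18 samples for 4 low imprinted genes, with group mean and SD (n = 3). MKRN3 has 0 reads in all samples of ΔSCC4 and clone 1.14, RTL1 has at most 1 read in any knockout sample, and CALCR has 0 reads in clone 1.14, while DIRAS3 stays between 1 and 6 reads.

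In 7q21, CALCR, the calcitonin receptor, was low in the controls and lower in some knockouts. It had 4, 4 and 9 reads in control A, 5, 3 and 0 in clone 3.3, 0, 1 and 0 in *ΔSCC4* and 0, 2 and 2 in *ΔWAPL*/*ΔSCC4*. In control B it had 6, 6 and 2 reads, and in clone 1.14 it had 0 in all 3 samples. The level was at least 5.16-fold lower in clone 1.14, and the ratio of control A to *ΔSCC4* was 13.9 (interval 2.19 to 583). Without the filter edgeR gave adjusted p-values of 0.0485 in clone 1.14, 0.0419 in *ΔSCC4* and 0.156 in *ΔWAPL*/*ΔSCC4*.

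The other genes of 7q21, PEG10, SGCE and PPP1R9A, did not pass in a knockout against its controls without the replicate block. PEG10 had 2247, 2298 and 1602 CPM in clone 3.3 and 2753, 3374 and 2568 CPM in *ΔWAPL*/*ΔSCC4*. It was higher in *ΔWAPL*/*ΔSCC4* than in clone 3.3 by 0.50 ± 0.14 on the log2 scale (edgeR adjusted p = 0.0293), where 3 of 24 imprinted genes and 10.6% of all genes passed. Without replicate 3 of clone 3.3 the difference was 0.35 (adjusted p = 0.0679), and in a single fit of all 18 samples it was 0.50 (adjusted p = 0.157). TFPI2, a protease inhibitor gene of the same band from a list of other imprinted transcripts, had a mean of 2.28 CPM in control A. It rose in clone 3.3 (2.33 ± 0.18, edgeR adjusted p = 7.99e-07) and in *ΔSCC4* (1.94 ± 0.18, adjusted p = 6.98e-05). It did not pass in clone 1.14 (-0.15 ± 0.19, adjusted p = 0.584). The difference between the clones passed (2.49 ± 0.24, adjusted p = 2.96e-05). Control B lay above control A by 0.77 ± 0.20, which did not pass (adjusted p = 0.162). With 0 reads in all *ΔWAPL*/*ΔSCC4* samples, TFPI2 was there at least 39.1-fold lower than in control A and at least 201-fold lower than in clone 3.3.

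ZFAT, a zinc finger gene of 8q24, rose in *ΔSCC4* (ENSG00000066827, chr8:135490031-135725292, hg19, minus strand). It had 19.8, 16.6 and 16.3 CPM in control A and 30.4, 30.3 and 24 CPM in *ΔSCC4*, without overlap. In clone 3.3 it had 14.9, 14.9 and 15.5 CPM, and in *ΔWAPL*/*ΔSCC4* 14.7, 12.4 and 14.4 CPM, below every control A sample. In set B it had 15.7, 17.7 and 14.1 CPM in the controls and 16.4, 15.7 and 16.5 CPM in clone 1.14. The rise in *ΔSCC4* was 0.67 ± 0.16 (edgeR adjusted p = 0.022), while clone 3.3 and *ΔWAPL*/*ΔSCC4* did not pass (-0.24 ± 0.16 and -0.35 ± 0.14). The call was lost without replicate 2 or 3 of control A or replicate 1 or 2 of *ΔSCC4*, with log2 fold changes between 0.61 and 0.63 and adjusted p-values between 0.0613 and 0.132. TRAPPC9, a vesicle trafficking subunit of the same band, did not pass in any comparison without the replicate block.

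INPP5F, an inositol phosphatase of 10q26, fell in clone 1.14 (ENSG00000198825, chr10:121485554-121588659, hg19, plus strand). It had 51.3, 42.5 and 49.8 CPM in control B and 39, 38.5 and 38.4 CPM in clone 1.14, without overlap. In control A it had 19.1, 33.8 and 41.2 CPM, in clone 3.3 36.4, 22.5 and 21.3 CPM, in *ΔSCC4* 13.85, 13.33 and 25.5 CPM and in *ΔWAPL*/*ΔSCC4* 29.4, 37.9 and 24 CPM. These groups of set A overlapped. The fall was -0.31 ± 0.08 (edgeR adjusted p = 0.0295) and was lost without replicate 1 of control B or any sample of clone 1.14, with adjusted p-values between 0.1 and 0.145. It was also lost in a single fit of all 18 samples (adjusted p = 0.505). With all 6 controls the log2 fold change was -0.04 (adjusted p = 0.919). Of 5 neighbours tested, RGS10 and BAG3 fell in clone 1.14 (-0.53 ± 0.08 and -0.29 ± 0.08, adjusted p = 0.00308 and 0.0441), where 20.1% of all genes passed. Neither passed in clone 3.3, *ΔSCC4* or *ΔWAPL*/*ΔSCC4*.

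The imprinted genes of the remaining bands did not pass in any comparison without the replicate block. On or low in the controls, these were DIRAS3, ZDBF2, NAP1L5, PLAGL1, GRB10, DDC, WT1, ZNF597, DNMT1, BLCAP, L3MBTL1 and GNAS, and KCNK9 of 8q24. DIRAS3, DDC, KCNK9 and L3MBTL1 had too few reads for the filter in every comparison. ZDBF2 varied within groups, with 37 ± 18.4 CPM (SD, n = 3) in control B, and its log2 fold change in clone 1.14 was 0.56 ± 0.33 (adjusted p = 0.261).

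Control B against control A gave 0 of 24 imprinted genes by edgeR and 0 by DESeq2, against 0.64% of all genes, with 2 imprinted genes at an unadjusted p under 0.05.

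Among 25 genes that set or keep DNA methylation and imprints, 24 were matched. In *ΔSCC4*, 0 of 19 passed by edgeR, with 4 at an unadjusted p under 0.05, and DESeq2 called 1, TET1. In *ΔWAPL*/*ΔSCC4*, 0 of 18 passed by edgeR, with 2 at an unadjusted p under 0.05, and 0 by DESeq2. All genes passed at 9.49% and 7.95% in these comparisons. In clone 3.3, 1 of 18 passed by edgeR and 1 by DESeq2, against 8.07% of all genes. In clone 1.14, 6 of 20 passed by edgeR and 4 by DESeq2, against 20.1% of all genes. DNMT3L, the cofactor of the de novo DNA methyltransferases, had 40 reads in control A and 0 in clone 3.3, at least 13.6-fold lower. It had 93 reads in control B and 1 in clone 1.14, a ratio of 103 (interval 18 to 4110). DNMT3L and CTCFL were also higher in control B than in control A (1.23 ± 0.22 and 2.12 ± 0.32, edgeR adjusted p = 0.0456 and 0.0246). In clone 1.14 ZFP42, CTCFL and USP7 also fell, and TET3 and HELLS rose, of which USP7 and TET3 did not pass by DESeq2. ZFP42 had 27 reads in control A, 1 in clone 3.3 (ratio 27.5, interval 4.53 to 1130) and 0 in *ΔWAPL*/*ΔSCC4* (at least 9.59-fold lower). The filter left ZFP42 out of both comparisons. It lay higher in control B than in control A by 1.45 ± 0.27, which did not pass (edgeR adjusted p = 0.0535). DNMT1 itself did not pass, with log2 fold changes between -0.10 and 0.07 in the 4 single knockout comparisons with controls.

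Of 18 other transcripts of imprinted clusters, 7 were matched and 3 tested. IGF2, the growth factor gene of 11p15, had 1.73 to 2.28 CPM in control A, 6.41 to 7.88 CPM in *ΔSCC4* and 5.88 to 8.13 CPM in *ΔWAPL*/*ΔSCC4*. It rose by 1.84 ± 0.19 and 1.83 ± 0.19 on the log2 scale (edgeR adjusted p = 0.000162 and 0.000154), and it was also higher in control B than in control A by 1.06 ± 0.17 (adjusted p = 0.0331). ZNF331 did not pass in any comparison.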

How the data were processed

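Strand-specific libraries of polyadenylated RNA were sequenced. The authors aligned reads with TopHat2 (version 2.0.9 in the submitters' processing notes, which also name hg19; the study's methods name another release) and deposited HTSeq counts per gene, without normalization. Lines that name no gene held 20.34 to 22.62% of reads and were left out.

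Counts were tested with edgeR 4.0.16 (R 4.3.3; quasi-likelihood, TMM, filterByExpr, Benjamini-Hochberg at 0.05), fitted on the groups compared; both clones together had set as covariate. DESeq2 1.42.0 was an alternative, as were other size factors, filters, a single fit of all samples, the replicate block, other controls and leaving out samples. SE was taken as the size of the log2 fold change divided by the root of F, and low counts can make it too small. The fits were tested on simulated data. There, changes were placed only in genes with enough reads, and all genes had the same setting for the spread between replicates. Changes in genes with few reads were therefore not covered. Positions came from GENCODE on GRCh37, where 96.6% of genes were found.

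Members and lists were chosen with earlier results of these data known. Genes past the threshold in a knockout against its controls were named with every sample; non-members only from lists or within 250 kb.

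Replicate numbers were taken to pair samples where all 3 same-numbered correlations of deviations were over 0.1: control A with ΔSCC4 (0.865, 0.254, 0.787) and control B with clone 1.14 (0.129, 0.507, 0.345). The pairing comes from the data, not the labels. The 18 replicate pairs differed beyond sampling noise (chi-square per degree of freedom 1.606 to 51.99).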

Additional observations from a re-analysis of the deposited data

Results flagged for a closer look

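The fall of MEST differed between the *ΔWAPL* clones, by 2.7104 on the log2 scale (clone 3.3 minus clone 1.14, edgeR adjusted p = 0.0116).

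In 24 imprinted genes with enough reads, the sample farthest from the rest of the 6 controls was tested by its gap over the range of log2 CPM. The gap passed Dixon's critical value of 0.625 in 3 genes, where chance flags about 1 in 20. For PEG10 it was 0.639, with control A replicate 1 at 1330 CPM below the others. For CDKN1C it was 0.751, with control A replicate 3 at 5.42 CPM below the others. For ATP10A it was 0.718, with control A replicate 1 at 57.9 CPM above the others.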

How the results depend on the processing

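Of 19 changes of an imprinted gene, 11 stayed past the threshold in every alternative that tested the gene, and none reversed. An alternative whose filter left the gene out was not counted. The number of imprinted genes called moved as follows. With at least 10 counts in every sample it was 1 over both clones, 0 in clone 3.3, 2 in clone 1.14, 2 in *ΔSCC4*, 0 in *ΔWAPL*/*ΔSCC4* and 0 for the difference between the clones, since fewer genes were tested. Without a filter it was 8 in *ΔSCC4* and 2 for the difference between the clones. In a single fit of all 18 samples it was 8 in *ΔSCC4* and 1 for control B against control A. With the replicate block it was 1 over both clones, where MEST and ATP10A were lost, and 12 in *ΔSCC4*, and the block changed the call of no other comparison by over 1.5 times. Leaving out each sample gave 1 to 5 over both clones, 2 to 9 in clone 1.14, 2 to 7 in *ΔSCC4*, 2 to 5 in *ΔWAPL*/*ΔSCC4* and 1 to 2 for the difference between the clones. The samples behind these extremes were control A replicate 3 (5 over both clones and 5 in *ΔWAPL*/*ΔSCC4*), control B replicate 3 (9) and control A replicate 1 (7). Where no value or construction is given, the cause was not tested. The number of genes on in the controls was 21 to 23 under every alternative. Few reads limit DLK1, RTL1, MKRN3 and CALCR.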
